A study of Canis lupus familiaris with 2 samples.

Results

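The genes described here are those of autophagy and of the lysosome, taken by gene symbol from a list of 46 names, of which 45 were found among the 23510 features of the deposited tables. MDCK cells, an established dog kidney line that forms a columnar epithelial sheet, were grown on a semipermeable membrane under medium that stood either 2 cm high (the 2-cm culture) or 50 cm high (the 50-cm culture). The taller column loads the cells with more static water pressure, 50 against 2 cm H2O by the labels. The labels give 3 days of culture for each. Nothing else differed between the groups according to the labels, and each group was 1 culture and 1 RNA sequencing library. No replicate error exists, so no gene was tested and every difference given here compares these 2 libraries.

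Autophagy wraps cytoplasm in a double membrane, the autophagosome, and delivers it to the lysosome. A kinase complex starts the process, a lipid kinase marks the membrane, and a conjugation system like that of ubiquitin fixes Atg8 proteins (LC3 and GABARAP) to it, to which cargo receptors bind. The lysosome is kept acid by a proton pump, holds hydrolases that work at acid pH, and is supplied by transcription factors of the MiT/TFE family (TFEB, TFE3 and MITF), which starvation moves into the nucleus and which raise many of these genes together. In the kidney, some tubule cells take up much protein from the tubular fluid and degrade it in lysosomes. Such uptake was not measured in these MDCK cultures.

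Levels are FPKM values calculated by the authors, in which the fragments on a gene are divided by its exon length and by the size of the library, so that levels of different genes can be compared. A change is the ratio of 50-cm over 2-cm FPKM, with no pseudocount, wherever a feature exceeded 1 FPKM in both cultures. FPKM is a share of the RNA of the culture, and fewer cells expressing a gene and less of its RNA per cell cannot be told apart. Of the 12 markers listed for kidney tubule epithelium, 11 were above 1 FPKM in both cultures, with a summed level of 5673 FPKM in the 2-cm culture and 5307 FPKM in the 50-cm culture, and CDH16 was at 1.96 and 0.676 FPKM. The markers of fibroblasts summed to 0.356 and 0.401 FPKM, those of endothelium to 0.474 and 0.277 FPKM, and those of leukocytes to 4.89 and 3.79 FPKM, nearly all of the last from CD14. How many reads each library held is unknown. Among 907 features between 0.2 and 0.5 FPKM in the 2-cm culture, 581 had a ratio that whole numbers of up to 30 reads per culture give to within a relative error of 1e-05, and there 1 FPKM stood for a median of at least 15.9 reads (interquartile range 7.23 to 30.2). Reads per FPKM rise with the length of a gene, which was not used here, so no counting interval was attached to single values.

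The listed autophagy and lysosome genes differed by less than 2-fold between the cultures, and more of them were lower than higher in the 50-cm culture. In the values as deposited, the 128 further genes of the same pathways, described below, did not share this lean as a whole (65 higher and 63 lower). Their lists differed, from 2 of 8 cargo receptor genes and 9 of 23 autophagy genes higher to 11 of 13 genes listed as TFEB regulators. The hydrolase list also moved with scaling, from 20 of 38 higher to 12 of 38 with FPKM rescaled to an equal sum. Of the 45 genes found, 44 were above 1 FPKM in both cultures, and CTSL was listed at 0 in both. None of these 44 differed more than 2-fold, against 1.67% of all 11057 features above 1 FPKM in both. GABARAPL1 alone differed more than 1.5-fold, which was 1 of 44 genes (2.27%) beside 7.19% of all features. Ratios spread less at higher levels, and among the 9066 features within the range of levels of these genes the share past 1.5-fold was 4.82%. Ratios ran from 0.583 (GABARAPL1) to 1.27 (ATG4B), and 36 of the 44 genes lay within 1.25-fold (81.8%, against 76.1% of all features and 80.2% of those within the same range of levels). Within 1.1-fold lay 24 of the 44 genes, beside 4707 of all 11057 features and 4152 of the 9066 within the same range of levels. Of the 44 genes, 14 were higher and 30 lower in the 50-cm culture, so that 31.8% were higher, against 52.6% of all features and 55.8% of those within the same range of levels. With FPKM rescaled to an equal sum in both cultures, 12 of 44 were higher, against 47.1% of all features. The median log2 ratio was -0.06, against 0.01 over all features. The summed level of the 45 genes was 3683 FPKM in the 2-cm culture and 3539 FPKM in the 50-cm culture, or 0.613% and 0.576% of the FPKM of all features. CTSD alone, the most abundant of them, differed by more than the sums did, and without it they were 2846 FPKM in the 2-cm culture and 2872 FPKM in the 50-cm culture.

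**Figure D1:**
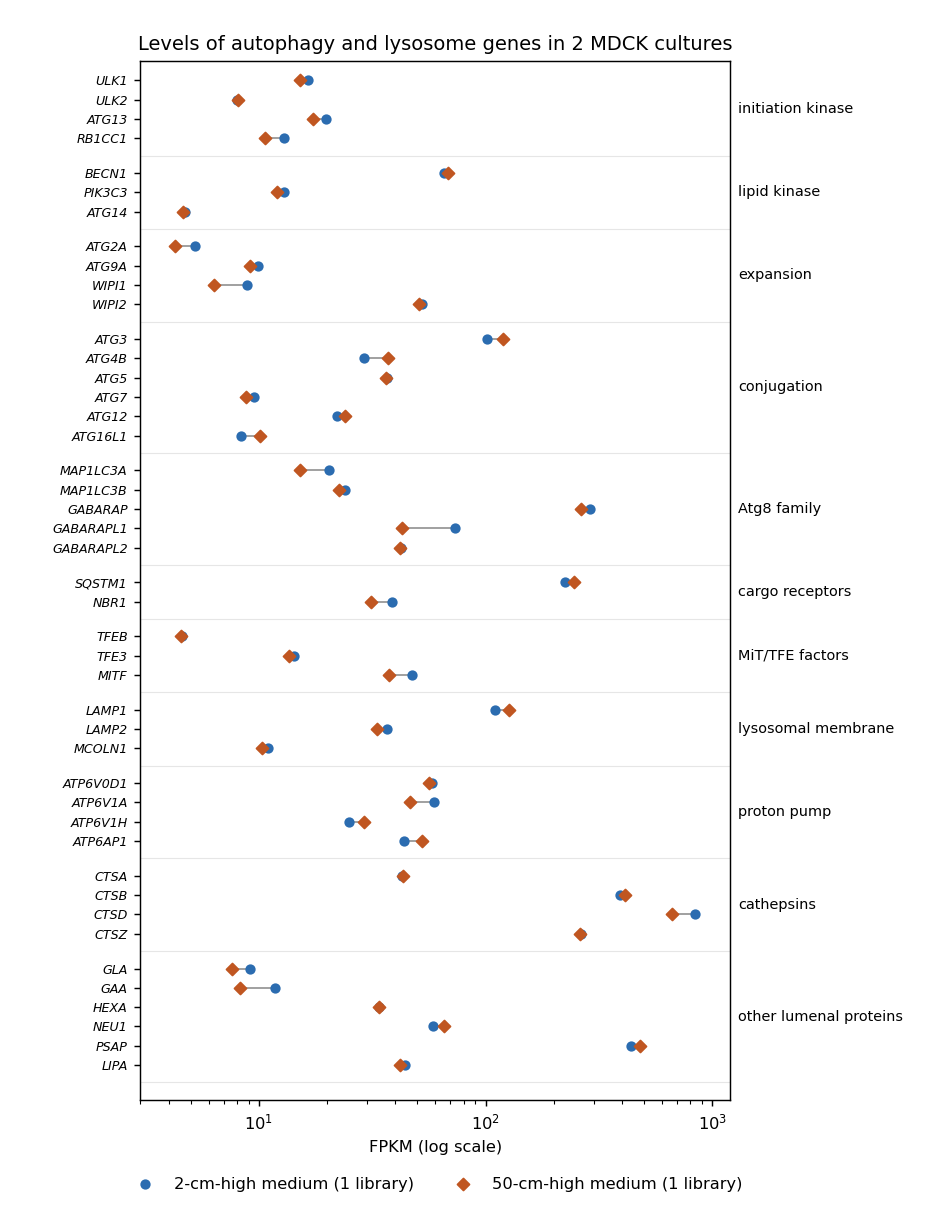
FPKM (log axis) of the 44 genes above 1 FPKM in both cultures, ordered by role, with a circle for the 2-cm-high-medium library and a diamond for the 50-cm-high-medium library, joined by a line. The circle and the diamond lie close together for most genes, and GABARAPL1 has the longest line, from 73.6 to 42.9 FPKM.

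**Figure D2:**
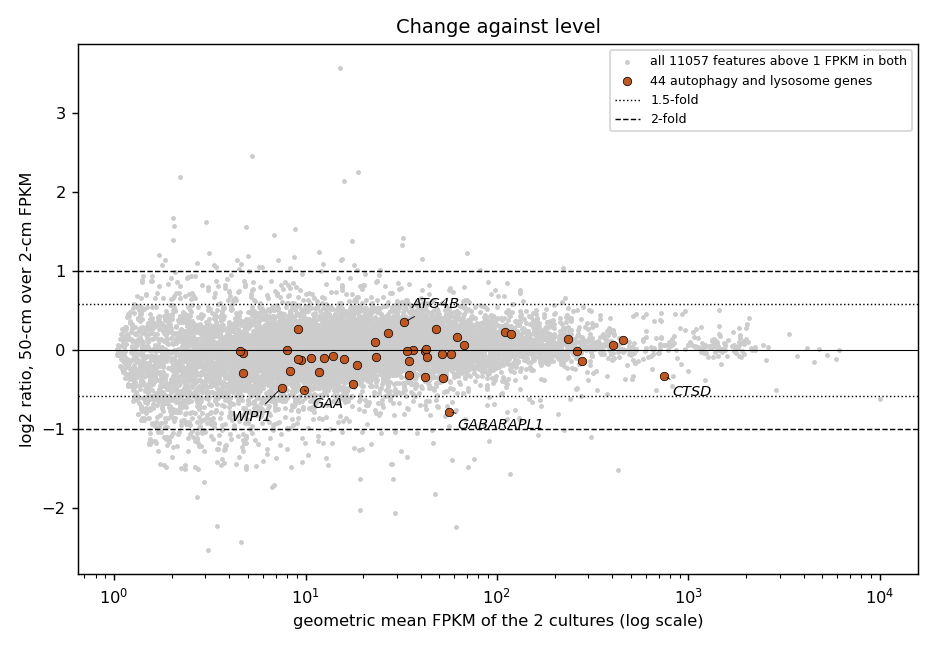
The log2 ratio (50-cm over 2-cm) against the geometric mean FPKM (log axis) for all 11057 features (grey) and the 44 autophagy and lysosome genes (orange), with lines at 1.5-fold (dotted) and 2-fold (dashed). All 44 genes lie inside the 2-fold lines, and GABARAPL1 is the only one outside the 1.5-fold lines.

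The kinase complex that starts autophagy was slightly lower or level. ULK1, its catalytic kinase, was at 16.5 FPKM in the 2-cm culture and 15.2 FPKM in the 50-cm culture (ratio 0.926). Its relative ULK2 was at 8.03 and 8.06 FPKM (ratio 1.005) and turned slightly lower under 3 of the scalings. The scaffold RB1CC1 (also called FIP200) went from 12.9 to 10.6 FPKM (ratio 0.822), and ATG13, which bridges the kinase and the scaffold, from 19.8 to 17.4 FPKM (ratio 0.879). As a yardstick for single genes, the log2 ratio was divided by the spread (the scaled median absolute deviation) among the 500 features nearest in level, which runs across genes and is not replicate error. RB1CC1 lay -1.26 such deviations from 0, and the other 3 closer to 0. ATG101, the partner of ATG13, was not found under that symbol. A feature named C27H12orf44, whose name holds the older human symbol of ATG101, was at 128 and 138 FPKM (ratio 1.08), a row looked up after the other values had been seen.

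The lipid kinase complex differed least among the roles of the autophagy machinery. BECN1 (Beclin 1), its regulatory subunit, was at 65.4 and 68.5 FPKM (ratio 1.05). The kinase PIK3C3 (VPS34) was at 12.96 and 12.04 FPKM (ratio 0.929), and ATG14, which directs the complex to autophagy, at 4.74 and 4.63 FPKM (ratio 0.977). All 3 lay within 1.1-fold. BECN1 was thus by far the most abundant of the 3 RNAs and ATG14 the least in both cultures.

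The genes that expand the membrane were all lower in the 50-cm culture, 4 of 4, beside 47.4% of all features. WIPI1, which binds the lipid made by PIK3C3, went from 8.85 to 6.35 FPKM (ratio 0.717, -1.64 deviations), whereas WIPI2, the family member that recruits the conjugation system, was at 52.4 and 50.8 FPKM (ratio 0.969). The lipid transfer protein ATG2A went from 5.23 to 4.28 FPKM (ratio 0.817). ATG9A, a lipid scramblase carried by vesicles, was at 9.94 and 9.11 FPKM (ratio 0.917). The median log2 ratio of these 4 genes was -0.21, and it was -0.13 both with a minimum of 5 FPKM, which removes ATG2A, and with quantile normalization. WIPI1 and ATG2A, with the lowest ratios of the 4, were also the 2 least abundant of them in the 50-cm culture.

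The conjugation system was the role with the highest median log2 ratio, 0.17. Of its 6 genes 4 were higher in the 50-cm culture, beside 52.6% of all features. ATG4B, the protease that trims Atg8 proteins before conjugation and frees them afterwards, went from 29.1 to 37.1 FPKM (ratio 1.27, 1.75 deviations), the highest ratio of all 44 genes. ATG16L1, which places the conjugation on the membrane, went from 8.34 to 10.1 FPKM (ratio 1.21). ATG3, the E2-like enzyme that hands Atg8 proteins to the lipid, went from 101 to 119 FPKM (ratio 1.18). The remaining genes stood closer to 1. ATG12, a ubiquitin-like protein, was at 22.2 and 23.9 FPKM (ratio 1.08), and ATG5, to which ATG12 is joined, was at 36.6 and 36.4 FPKM (ratio 0.996). ATG7, the E1-like enzyme of the system, was at 9.50 and 8.77 FPKM (ratio 0.923).

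All 5 Atg8 genes were lower in the 50-cm culture, by very different amounts, beside 47.4% of all features that were lower. They stayed lower under each of the 10 alternatives tried for filter, pseudocount and scaling. GABARAPL1 went from 73.6 to 42.9 FPKM, a ratio of 0.583 (log2 ratio -0.78), which lay -4.22 deviations from 0 and was lower than that of all but 2.60% of features. MAP1LC3A (LC3A) went from 20.4 to 15.2 FPKM (ratio 0.745, -2.17 deviations). The other genes differed by less than 1 deviation. MAP1LC3B (LC3B), whose protein is the usual marker of autophagosomes, was at 24.0 and 22.6 FPKM (ratio 0.941). GABARAP was at 290 and 264 FPKM (ratio 0.9096), and GABARAPL2 was at 42.5 and 42.1 FPKM (ratio 0.989). GABARAP was the most abundant of the 5 RNAs and made up 64.4% of the summed Atg8 FPKM in the 2-cm culture and 68.3% in the 50-cm culture. GABARAPL1 ranked behind it in both cultures, but its part of that sum was 16.3% in the 2-cm culture and 11.1% in the 50-cm culture, where GABARAPL2 had 10.9%. The summed Atg8 level was 451 FPKM in the 2-cm culture and 387 FPKM in the 50-cm culture (ratio 0.858), and GABARAPL1 and GABARAP account for most of the difference. The Atg8 genes are related in sequence, and the sources used here do not say how reads that map to several of them were counted.

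The listed cargo receptors pointed in opposite directions. SQSTM1 (p62), which links ubiquitin-tagged cargo to Atg8 proteins, was at 224 FPKM in the 2-cm culture and 246 FPKM in the 50-cm culture (ratio 1.099). NBR1, a receptor of similar build, went from 38.7 to 31.1 FPKM (ratio 0.803, -1.61 deviations). Among 8 other cargo receptor genes above 1 FPKM, 2 were higher and 6 lower, beside 47.4% of all features that were lower. BNIP3L was the only one past 1.5-fold, though CCPG1 (ratio 0.680) also passed that mark under both rescalings to an equal sum. BNIP3L (NIX), a receptor on the surface of mitochondria that binds Atg8 proteins, went from 34.0 to 11.0 FPKM (ratio 0.323, -8.38 deviations). It ranked 12 from the lowest ratio among the 11057 features and was the only gene past 2-fold among the 44 genes and the 128 further pathway genes above 1 FPKM. TOLLIP had the highest ratio of these receptors, from 25.3 to 30.4 FPKM (ratio 1.20). CALCOCO2 (NDP52), OPTN and TAX1BP1, which bind ubiquitin-tagged cargo as SQSTM1 does, had ratios of 0.924, 0.871 and 0.923.

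The factors that drive lysosomal genes were level or lower. TFEB was at 4.58 and 4.55 FPKM (ratio 0.993, above 1 with quantile normalization) and TFE3 at 14.3 and 13.6 FPKM (ratio 0.951). MITF, at 47.5 FPKM in the 2-cm culture and 37.5 FPKM in the 50-cm culture, had the lowest ratio of the family, 0.79 (-1.93 deviations). MITF made up 71.5% and 67.4% of the summed FPKM of the 3 factors, and TFEB 6.90% and 8.17%. RNA levels say nothing of the place of these proteins in the cell, by which their activity is mainly set.

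A list of TFEB regulators, which also holds GPNMB, a gene raised by factors of this family, had 13 genes above 1 FPKM. Of these, 11 were higher and 2 lower in the 50-cm culture, with a median log2 ratio of 0.12, and none was past 1.5-fold. By the same count 52.6% of all features were higher. Other scalings gave 9 to 11 of the 13 higher, and the lowest, from rescaling without the 10 highest features, stood beside 43.9% of all features. The highest was GPNMB, a lysosomal glycoprotein raised by MITF and TFE3 in other cells, which went from 39.4 to 52.6 FPKM (ratio 1.33). FLCN (folliculin), through which nutrients keep TFEB and TFE3 in the cytoplasm, went from 16.1 to 19.3 FPKM (ratio 1.197), and its partner FNIP2 was the lowest, at 23.5 and 21.3 FPKM (ratio 0.907). RRAGD and RRAGC, Rag GTPases whose genes TFEB can raise, had ratios of 1.01 and 1.09.

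The lysosomal membrane proteins also differed little. LAMP1, a heavily glycosylated protein that lines the lysosomal membrane, went from 110 to 126 FPKM (ratio 1.15). Its relative LAMP2, needed for fusion with autophagosomes and for chaperone-mediated autophagy, was at 36.6 and 33.1 FPKM (ratio 0.905). The calcium channel MCOLN1 (TRPML1) was at 11.0 and 10.3 FPKM (ratio 0.936). Of 21 other lysosomal membrane genes, 9 were higher and 12 lower, with a median log2 ratio of -0.03. By the same count 52.6% of all features were higher. CLN3, the gene of a childhood storage disease of neurons, had the lowest ratio, from 15.8 to 8.68 FPKM (ratio 0.548, -3.86 deviations), and was the only one past 1.5-fold. The highest was OSTM1, the partner of the chloride transporter CLCN7, from 13.1 to 15.2 FPKM (ratio 1.16).

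**Figure D3:**
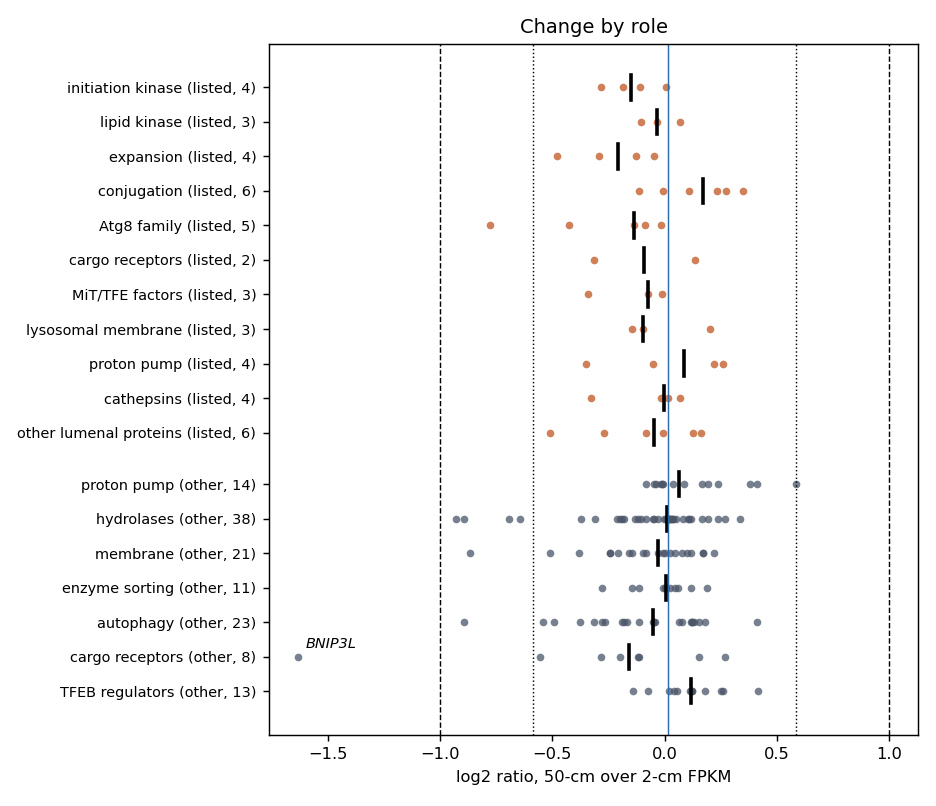
The log2 ratio (50-cm over 2-cm) for each gene (point), by role, for the 44 genes (orange, marked listed) and for 128 other genes of the same pathways (dark grey, marked other), with the number of genes in brackets and a black bar at each median. The blue line is the median of all features (0.01), dotted lines mark 1.5-fold and dashed lines 2-fold, and BNIP3L is the only point beyond 2-fold.

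Genes of the proton pump, the V-ATPase, went both ways. ATP6V1A, the subunit that binds ATP, went from 59.2 to 46.4 FPKM (ratio 0.784, -1.82 deviations). ATP6V1H, the regulatory subunit of the same V1 domain, went from 25.05 to 29.21 FPKM (ratio 1.17). ATP6V0D1, of the membrane domain V0, was at 58.3 and 56.3 FPKM (ratio 0.965), and the accessory protein ATP6AP1 went from 43.7 to 52.4 FPKM (ratio 1.20). With the other pump genes on the list, 18 were above 1 FPKM in both cultures, of which 10 were higher and 8 lower. These were divided by domain, a split made after the values had been seen. Of the V0 genes 6 of 7 were higher, with a median log2 ratio of 0.24. Of the V1 genes 3 of 9 were higher, with a median log2 ratio of -0.01. Over all features 52.6% were higher, and no test was made on lists this short. Within V0, ATP6V0C, the proteolipid of the membrane ring, went from 199 to 264 FPKM (ratio 1.33), and ATP6V0B, a further ring subunit, from 99.6 to 130 FPKM (ratio 1.30). ATP6V0E2 was the highest, from 17.9 to 26.9 FPKM (ratio 1.501, 2.90 deviations), and stood just past 1.5-fold, a mark it missed with a pseudocount or another scaling. The lowest of the pump genes outside the 44 was ATP6V1F, at 197 and 186 FPKM (ratio 0.945). The summed V0 level was 510 FPKM in the 2-cm culture and 635 FPKM in the 50-cm culture, and the summed V1 level was 597 and 580 FPKM.

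**Figure D4:**
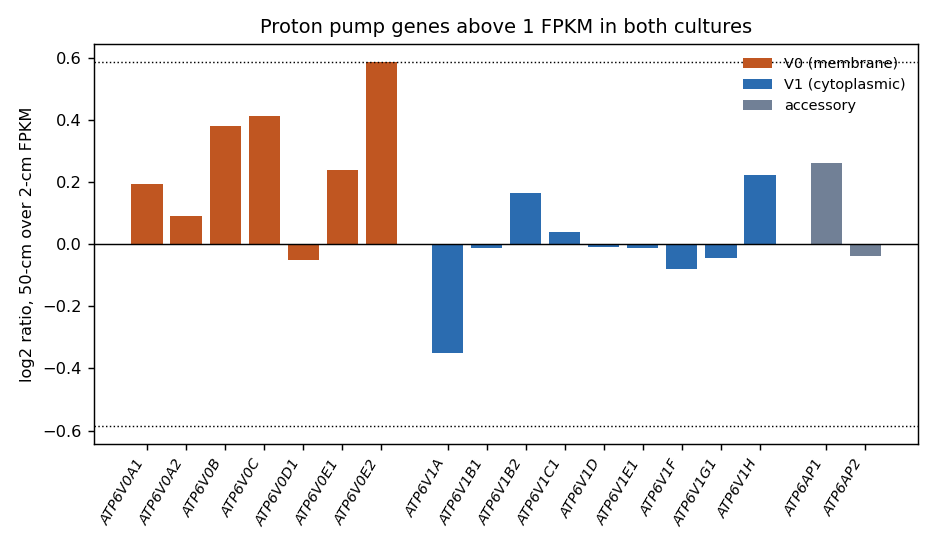
The log2 ratio (50-cm over 2-cm) for the 18 proton pump genes above 1 FPKM in both cultures, as bars coloured by domain (V0 orange, V1 blue, accessory grey), with dotted lines at 1.5-fold. Of the V0 bars 6 of 7 point up, while most V1 bars lie near 0 and ATP6V1A points down to -0.35. The division by domain was made after the values had been seen, and 52.6% of all features were higher.

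Cathepsins, the main lysosomal proteases, included the most abundant RNA of the set. CTSD, an aspartic protease, had the highest level of all 44 genes and went from 837 to 667 FPKM (ratio 0.797, -2.36 deviations). This was a smaller ratio change than that of WIPI1 or MAP1LC3A, but the spread among features of such high level was narrow, 0.14 on the log2 scale. The cysteine proteases CTSB, at 394 and 413 FPKM (ratio 1.05), and CTSZ, at 265 and 262 FPKM (ratio 0.989), stood near 1. CTSA, a carboxypeptidase that also protects NEU1, was at 42.6 and 43.1 FPKM (ratio 1.01). CTSD made up 54.4% of the summed FPKM of CTSA, CTSB, CTSD and CTSZ in the 2-cm culture and 48.2% in the 50-cm culture. Cathepsin genes of the wider list below are outside that sum, among them CTSH, at 109 and 108 FPKM. CTSL was listed at 0 FPKM in both cultures, as were CTSL2 and CTSL3, and such a 0 can be a failed estimate, so no level of cathepsin L is given.

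Among the remaining proteins of the lysosomal lumen, PSAP, the precursor of the saposins that present lipids to hydrolases, was the most abundant, at 439 and 479 FPKM (ratio 1.09). NEU1, a sialidase, went from 58.8 to 65.9 FPKM (ratio 1.12). HEXA, a subunit of the hexosaminidase that clears gangliosides, was at 33.9 and 33.8 FPKM (ratio 0.995), and LIPA, which frees cholesterol and fatty acids from lipoprotein lipids, was at 44.3 and 41.7 FPKM (ratio 0.943). The pair of glycosidases with the lowest levels also had the lowest ratios. GAA, which breaks down glycogen in lysosomes, went from 11.8 to 8.28 FPKM (ratio 0.703, -2.05 deviations), and GLA, which acts on globotriaosylceramide, from 9.14 to 7.57 FPKM (ratio 0.828, -1.01 deviations).

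A wider list of 38 other hydrolase and lumen genes above 1 FPKM was balanced in the values as deposited, with 20 higher and 18 lower and a median log2 ratio of 0.01. The share higher was 52.6%, as over all features. Many of these genes lay so close to 1 that rescaling without the 10 highest features made the split 10 higher and 28 lower, beside 43.9% of all features that were higher. Rescaling to an equal sum gave 12 of 38 higher, beside 47.1% of all features, and quantile normalization 14 of 38, beside 52.0%. The genes past 1.5-fold were all lower, 4 of 38 (10.5%). Of all features, 7.19% were past 1.5-fold in either direction and 5.06% were lower by that much. A pseudocount of 1 or quantile normalization gave 3 of 38. With a minimum of 5 FPKM, which removes AGA and GALNS, 2 of 35 were past 1.5-fold, beside 3.84% of all features. These 2 were CTSS, a cysteine protease known from antigen presentation (21.4 to 11.5 FPKM, ratio 0.538, -4.23 deviations), and CTSF, a further cysteine protease (15.4 to 9.56 FPKM, ratio 0.619, -3.14 deviations). AGA, which cleaves sugar from asparagine, had the lowest ratio (4.51 to 2.37 FPKM, ratio 0.525, -2.23 deviations), and GALNS, a sulfatase, followed these (3.54 to 2.27 FPKM, ratio 0.64, -1.65 deviations). The highest was NAGLU, a heparan sulfate glycosidase, from 22.2 to 28.1 FPKM (ratio 1.26). Genes that sort enzymes to the lysosome stood still closer together, all 11 within 1.25-fold, from SORT1 (sortilin, ratio 0.824) to GGA1, an adaptor for the mannose 6-phosphate receptors (ratio 1.14). The receptor M6PR was at 110 FPKM in both cultures (ratio 1.01).

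Of 23 other autophagy genes above 1 FPKM, 9 were higher and 14 lower, with a median log2 ratio of -0.05. ATG10, the E2-like enzyme that joins ATG12 to ATG5, was the lowest and the only one past 1.5-fold (3.89 to 2.10 FPKM, ratio 0.538, -2.27 deviations). This set it apart in direction from ATG3, the other E2-like enzyme (ratio 1.18). With a minimum of 5 FPKM, which removes ATG10, none of 19 was past 1.5-fold, beside 3.84% of all features. Rescaling without the 10 highest features gave 2 of 23, beside 7.64% of all features. ATG9B, the relative of ATG9A, was the highest (5.91 to 7.85 FPKM, ratio 1.33). Across all 128 further pathway genes, 65 were higher and 63 lower in the values as deposited, with a median log2 ratio of 0.005. The share higher was 50.8%, against 52.6% of all features, and it was not computed for the 128 genes under other scalings. Of the 128 genes, 8 were past 1.5-fold (6.25%), 7 of them lower, beside 7.19% of all features.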

How the data were processed

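The authors made stranded mRNA libraries from MDCK cells under 2-cm-high and 50-cm-high medium (1 library each), sequenced 75-base single-end reads, and mapped them to CanFam3.1. Per the labels, TopHat2 2.0.13, Bowtie2 2.2.3, SAMtools 0.1.19 and Cuffnorm 2.2.1 were used. The deposited values are FPKM per gene symbol. The annotation and the scaling in Cuffnorm are not given in the sources used here. Because FPKM is relative to library size, a few abundant genes can move the values of the rest.

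From these values, ratios, counts and medians were computed with pandas 2.3.3 and numpy 2.4.6 in Python 3.11.15 (figures with matplotlib 3.10.9), for features above 1 FPKM in both cultures. The 2-fold limit follows the methods of the study, and 1.5-fold was added as a milder size. By that limit 185 of 11057 features were counted here, far fewer than the study reports, and the reason for the difference is not known. With 1 library per group no test was possible. The scripts were tested on simulated data. The genes and lists were chosen with earlier results of these data known. Every listed gene found is named, and, of other pathway genes, those past 2-fold and the highest and lowest of each list, with those past 1.5-fold and some of known role added later. A reference table of the dog assembly UU_Cfam_GSD_1.0 held 44 of the 45 symbols and served for names only. A planned search of promoters for an E-box was not run, because no promoter sequence was used here.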

Additional observations from a re-analysis of the deposited data

How the results depend on the processing

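The alternatives were FPKM minima above 0, 0.1 or 5 in both cultures or above 1 in at least one, pseudocounts of 0.1 and 1, recentring on the median, rescaling to an equal sum with or without the 10 highest features, and quantile normalization. Under all 10, none of the genes was past 2-fold and GABARAPL1 remained the only one past 1.5-fold, with ratios from 0.558 to 0.589. The number of genes higher in the 50-cm culture ran from 12 to 15 while the share of all features that were higher ran from 43.9% to 57.1%, and the median log2 ratio of the genes from -0.11 to -0.06. The median of the lipid kinase complex changed sign under quantile normalization (0.01), and those of the other roles kept their sign. A minimum of 5 FPKM removed 3 genes (TFEB, ATG14 and ATG2A) and moved the median of the MiT/TFE factors from -0.07 to -0.21, the only shift of a median by over 0.1. The sum without CTSD was added after seeing the data. Genes with ratios near 1 have no settled direction. Depth limits the weakest genes most, and no replicate shows how far such ratios would vary between cultures. No paired analysis was possible because each group has 1 sample.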

Other observations

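The kidney has its own forms of several proton pump subunits, found in the acid-secreting intercalated cells of the collecting duct. Of these, ATP6V1B1 was well above the minimum, at 43.5 FPKM in the 2-cm culture and 43.1 FPKM in the 50-cm culture, close to its widely expressed counterpart ATP6V1B2 (42.003 and 47.09 FPKM). ATP6V0A4, ATP6V0D2 and ATP6V1G3 were listed at 0 FPKM in both cultures, and ATP6V1C2 was at 0.0573 and 0.189 FPKM. As for CTSL, a listed 0 can be a failed estimate, so it does not show that a gene was silent. The widely expressed counterparts ATP6V0A1 and ATP6V0D1 were at 23.2 and 58.3 FPKM in the 2-cm culture.

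A few pathway genes crossed 1 FPKM between the cultures and were therefore outside the counts. ATG16L2 was at 1.69 and 0.683 FPKM and ATP6V1G2 at 1.54 and 0.634 FPKM. TP53INP1, which was below 1 FPKM in both, was at 0.77 and 0.337 FPKM. LAPTM4B, RRAGB, LAMP3 and MAP1LC3C were listed at 0 FPKM in both cultures, which again can be a failed estimate.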
